A study of Caenorhabditis elegans with 14 samples.

Results

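Small RNAs of 21 to 26 nt were examined at sid-1 and 4 protein-coding genes beside it on chromosome V of C. elegans, 5 of the 20541 genes in the count table. The 5 genes were chosen as sid-1 and genes near it, with earlier results of these data known. C04F5.9, C04F5.8 and ugt-63 lie upstream of sid-1 and F14F9.4 lies downstream. F14F9.5 and F14F9.8 lie nearer downstream and were not among the 5. The 12 libraries came from young adults in 5 groups. The strain HC83 lines labelled non-array were sampled at generation F21, when they are described as de-silenced (n = 2), and at generation F6, when they are described as silenced (n = 2). hrde-1;HC125, also named HC995, carries Psid-1::gfp together with a mutation of hrde-1 whose allele the labels do not name (n = 2). HC125 carries Psid-1::gfp, in which the promoter of sid-1 is joined to gfp (n = 4). N2 is the wild type (n = 2). By contrast with the non-array lines, the strains with Psid-1::gfp are taken to hold the array, whose full sequence content is unknown from the labels. Nothing in the labels tells whether replicates were grown separately, so the p-values measure the spread between these libraries, which may be technical.

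SID-1 is a membrane channel for double-stranded RNA, through which RNA interference moves between tissues of the worm. In heritable silencing, RNA-dependent RNA polymerases copy a target RNA into many short antisense RNAs, and the nuclear Argonaute HRDE-1 carries such RNAs in the germline and keeps the target locus silent over generations. Silencing of this kind can reach sequence beside its first target, and small RNAs counted at neighbouring genes are one readout of that reach. Small RNAs counted at a gene measure neither its messenger RNA nor its chromatin.

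In the WBcel235 annotation sid-1 (WBGene00004795) spans V:5119970-5126916 on the plus strand. C04F5.9 (WBGene00015451, V:5114715-5119209) lies on the minus strand, so that both genes start at the 760 bases between them and are read away from each other. C04F5.8 (WBGene00015450, V:5111518-5113754, minus strand) follows 6.22 kb from sid-1. ugt-63 (WBGene00015449, V:5108180-5110772, minus strand), which encodes a predicted UDP-glucuronosyltransferase, an enzyme type that attaches sugars to small molecules, lies 9.20 kb away. On the other side F14F9.5 (V:5127093-5130076, plus strand) begins 176 bases after the end of sid-1, followed by F14F9.8. F14F9.4 (WBGene00017467, V:5132741-5137118, plus strand) comes next, 5.82 kb from sid-1, and the noncoding gene F14F9.9 lies inside its span on the other strand. No other annotated gene overlaps sid-1, C04F5.9, C04F5.8 or ugt-63. Whether the counting used strand is not stated, so sense and antisense reads cannot be told apart.

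The reads assigned to genes numbered 451389 to 6379388 per library, a 14.1-fold range, and 3 reads stood for 0.47 CPM (reads of a gene per 1000000 reads, TMM-scaled) in the deepest library and 6.65 CPM in the shallowest. Of the table's genes 10470 had enough reads to be tested, and all 5 members were among them, though ugt-63 had 0 to 16 reads per library and F14F9.4 had 4 to 46. Major sperm protein genes, 31 genes that mark the sperm-forming germline, took 0.0402 and 0.0618% of the reads at F21, 0.0304 and 0.0286% at F6, 0.0967 and 0.0681% in hrde-1;HC125, 0.137, 0.131, 0.069 and 0.0425% in HC125, and 0.0574 and 0.19% in N2. HC125 replicates 1 and 2 and N2 replicate 2 thus had the highest shares, and earlier results of these data had also set these 3 libraries apart. Without them together, the calls and directions of sid-1, C04F5.9 and C04F5.8 stayed the same in every comparison, except for C04F5.9 in the 2 comparisons named later. Small RNAs at hrde-1 came to 471 and 540.3 CPM in hrde-1;HC125, against 841, 839, 1273 and 1096 CPM in HC125, which does not check the mutation.

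Small RNAs at sid-1 were most at F6, next in HC125, close to each other at F21 and in N2, and fewest in hrde-1;HC125. The level of sid-1 was 731 and 801 CPM at F21, 4732 and 4159 CPM at F6, 557 and 506 CPM in hrde-1;HC125, 2542, 2398, 2031 and 2279 CPM in HC125, and 836 and 786 CPM in N2. The libraries of F6, HC125 and hrde-1;HC125 overlapped with no other group, while the range of F21 overlapped that of N2. At C04F5.9 the order of the group means was the same and the spacing was not. Its level was 54.9 and 42.8 CPM at F21, 419.7 and 551 CPM at F6, 40.9 and 42.3 CPM in hrde-1;HC125, 92.5, 119, 69.9 and 68.9 CPM in HC125, and 73.2 and 58.4 CPM in N2. F6 stood far above every other group, and HC125 overlapped N2, while F21 lay just below N2 and just above hrde-1;HC125. The libraries are of whole animals, so fewer cells of a type and less RNA per cell cannot be told apart.

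**Figure D1:**
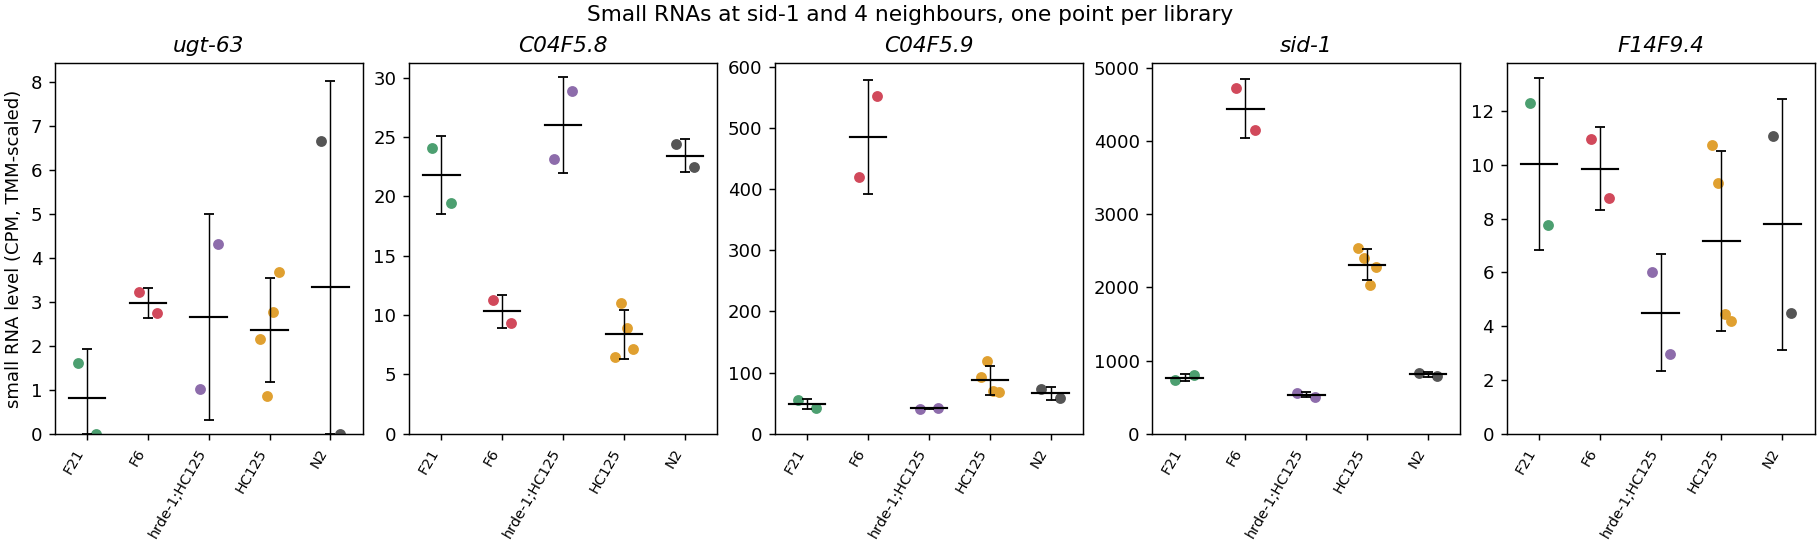
Level of small RNAs (CPM, TMM-scaled) at the 5 genes in their order along the chromosome, with 1 point per library, the group mean as a line and its SD as a bar, which stops at 0; each panel has its own axis. At C04F5.9 the F6 libraries (419.7 and 551 CPM) lie above all others, at sid-1 both F6 and HC125 are raised, and at C04F5.8 the same 2 groups are low.

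The non-array line at F6 was compared with N2 to ask whether small RNAs persist at the locus without the array. Both sid-1 and C04F5.9 rose, in both F6 libraries. sid-1 averaged 4446 ± 406 CPM at F6 and 811 ± 35.9 CPM in N2 (SD, n = 2 each), a 5.49-fold rise with a log2 fold change of 2.46 ± 0.16 (SE, edgeR quasi-likelihood test, adjusted p = 1.38e-07). C04F5.9 averaged 486 ± 93.2 CPM at F6 and 65.8 ± 10.5 CPM in N2, a 7.53-fold rise (log2 fold change 2.91 ± 0.26, edgeR adjusted p = 7.60e-06). These were 2 of the 5 members, where 1.43% of all tested genes were called, 0.382% higher and 1.05% lower. C04F5.8 (log2 fold change -1.17 ± 0.36, adjusted p = 0.0968), ugt-63 (0.28 ± 1.25, adjusted p = 0.939) and F14F9.4 (0.48 ± 0.65, adjusted p = 0.743) were not called. The major sperm protein genes had a median log2 fold change of -2.15, against a median of 0.0566 over all tested genes. Of these 31 genes 2 were called lower and 0 higher. At an unadjusted p under 0.05 there were 29 of the 31, beside 2053 of all 10470 tested genes. Their part in the values at sid-1 was not tested.

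F21 was compared with F6 to ask what remained of these small RNAs when the line is described as de-silenced. Both genes fell. sid-1 averaged 766 ± 49.6 CPM at F21 and 4446 ± 406 CPM at F6 (log2 fold change -2.54 ± 0.16, edgeR adjusted p = 1.57e-07). C04F5.9 averaged 48.8 ± 8.55 CPM at F21 and 486 ± 93.2 CPM at F6 (log2 fold change -3.25 ± 0.26, edgeR adjusted p = 4.37e-06). Only 0.143% of the tested genes were called in this comparison, 15 in all, with 0.0573% higher and 0.0860% lower, and sid-1 and C04F5.9 were among them. In the order of all 10470 log2 fold changes, C04F5.9 was the 17th lowest and sid-1 the 31st. C04F5.8, at 1.13 ± 0.32 (adjusted p = 0.531), was not called, nor were ugt-63 (-1.15 ± 1.08) and F14F9.4 (0.15 ± 0.53).

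Against N2, none of the 5 genes was called at F21 by edgeR, where 0.201% of the tested genes were called (0.115% higher and 0.0860% lower). None had an unadjusted p under 0.05, and DESeq2 called none of the 4 for which it gave an adjusted p. The log2 fold change was -0.08 for sid-1 with a 95% interval of -0.41 to 0.24, which does not reach the rise seen at F6. For C04F5.9 it was -0.34 with an interval of -0.95 to 0.28. For C04F5.8 it was -0.04 with an interval of -0.80 to 0.71. The major sperm protein genes had a median of -1.52 here, with 0 of 31 called by edgeR and 17 at an unadjusted p under 0.05.

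HC125 was compared with N2 to ask how far small RNAs reach from sid-1 when the array is present. sid-1 rose, and edgeR called none of its 4 neighbours. sid-1 averaged 2312 ± 216 CPM in HC125 (n = 4) and 811 ± 35.9 CPM in N2 (n = 2), with a log2 fold change of 1.51 ± 0.14 (edgeR adjusted p = 9.62e-06), and 0.506% of the tested genes were called, 0.220% higher and 0.287% lower. C04F5.9 averaged 87.5 ± 23.5 CPM in HC125 and 65.8 ± 10.5 CPM in N2. Its log2 fold change of 0.41 ± 0.25 (edgeR adjusted p = 0.585) had a 95% interval of -0.13 to 0.94, whose upper end lies below the rise of 2.91 at F6. Only 2 of the 4 HC125 libraries, replicates 1 and 2, lay above both N2 libraries at C04F5.9. These 2 libraries also had the higher major sperm protein shares in HC125, whose part in the result was not tested. Without them and N2 replicate 2 the log2 fold change of C04F5.9 was -0.05. ugt-63, with 3 and 0 reads in N2, was at 0.11 with a 95% interval of -2.40 to 2.62. That is too wide to tell a rise of the size at sid-1 from none. F14F9.4 was at -0.18 with an interval of -1.54 to 1.19, which ends below the rise of 1.51 at sid-1. C04F5.8 averaged 8.37 ± 2.05 CPM in HC125 and 23.4 ± 1.38 CPM in N2, with all 4 HC125 libraries below both N2 libraries. Its log2 fold change of -1.46 ± 0.34 was not called by edgeR (adjusted p = 0.0813), but was by DESeq2 (-1.52, adjusted p = 0.0467), without the low-count filter (-1.44, edgeR adjusted p = 0.0484) and without HC125 replicate 2 (-1.63, edgeR adjusted p = 0.0381). The call was absent with the replicate block (-1.28, edgeR adjusted p = 0.611) and with only the groups compared (-1.50, edgeR adjusted p = 0.418). Under the block HC125 rested on replicates 1 and 2 alone, because replicate numbers 3 and 4 occur only in HC125. Nor was the call made without HC125 replicate 1 (-1.45, edgeR adjusted p = 0.0841), replicate 3 (-1.49, edgeR adjusted p = 0.184) or replicate 4 (-1.35, edgeR adjusted p = 0.279). It was also absent with RLE scaling (-1.51, edgeR adjusted p = 0.0631) and with library size only (-1.44, edgeR adjusted p = 0.0952). The log2 fold change was -1.44 without N2 replicate 1 and -1.53 without N2 replicate 2.

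F6 was compared directly with HC125, both with raised small RNAs at sid-1 but one without and one with the array. Both sid-1 and C04F5.9 rose. sid-1 averaged 4446 ± 406 CPM at F6 and 2312 ± 216 CPM in HC125, a 1.92-fold rise (log2 fold change 0.94 ± 0.13, edgeR adjusted p = 0.000405). C04F5.9 averaged 486 ± 93.2 CPM at F6 and 87.5 ± 23.5 CPM in HC125, a 5.68-fold rise (log2 fold change 2.51 ± 0.19, edgeR adjusted p = 1.19e-06). The 95% intervals, 2.10 to 2.91 for C04F5.9 and 0.68 to 1.21 for sid-1, did not overlap. The major sperm protein genes had a median log2 fold change of -1.39 here, with 0 of 31 called and 23 at an unadjusted p under 0.05, and their part was not tested. Of all tested genes 0.621% were called, 0.258% higher and 0.363% lower. In the order of log2 fold changes C04F5.9 had the 5th highest of 10470 and sid-1 the 180th. The other 3 genes were not called, with log2 fold changes of 0.29 ± 0.30 for C04F5.8, 0.16 ± 0.83 for ugt-63 and 0.66 ± 0.47 for F14F9.4.

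The ratio of both genes within a library does not depend on the scaling between libraries. At F21 there were 7.51 and 5.34 reads of C04F5.9 per 100 reads of sid-1. At F6 there were 8.87 and 13.3, in hrde-1;HC125 7.34 and 8.37, in HC125 3.64, 4.96, 3.44 and 3.02, and in N2 8.75 and 7.43. HC125 therefore had the lowest ratio in all 4 of its libraries, below every library of the other groups, and F6 had the highest in both of its libraries. The first F6 library lay close to the first N2 library. The 95% counting intervals (exact binomial, covering counting error only) of the F6 libraries, 8.37 to 9.39 and 12.7 to 13.9, did not overlap, so these replicates differed by more than counting error.

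**Figure D2:**
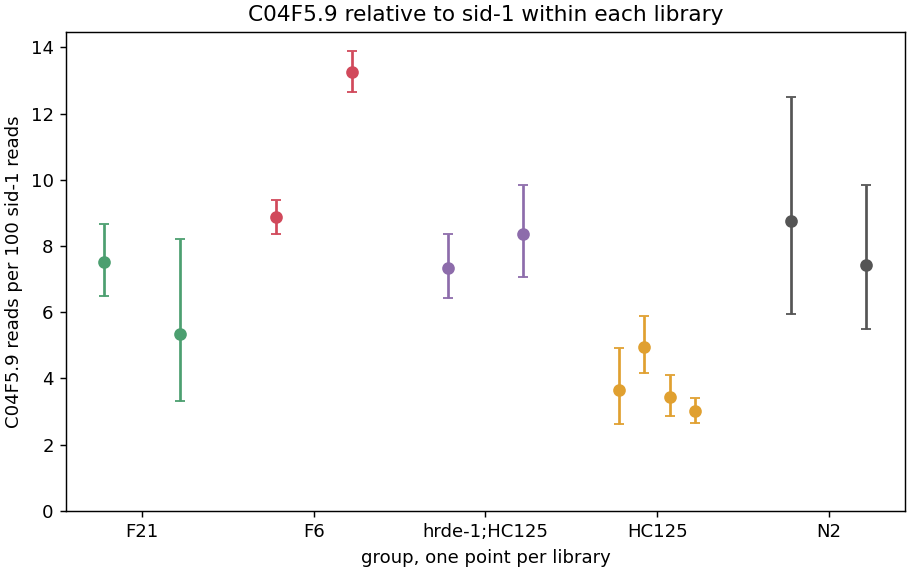
Reads of C04F5.9 per 100 reads of sid-1 in each library, with exact binomial 95% counting intervals as bars. The 4 HC125 libraries lie at 3.02 to 4.96, below every library of the other groups, and the F6 libraries lie at 8.87 and 13.3.

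The ratio was 2.93-fold higher at F6 than in HC125 (log2 difference 1.55) and 2.12-fold higher in hrde-1;HC125 than in HC125 (1.08), and lower in HC125 than in N2 (-1.12). Each had p = 0.133 in the two-sided exact permutation test over libraries, the smallest that 4 against 2 libraries allow, and an adjusted p of 0.311 over the 7 comparisons by the exact permutation test. With 2 against 2 libraries the test cannot go below 0.333, the value for F6 against N2 (log2 difference 0.43) and F21 against F6 (-0.78). For hrde-1;HC125 against N2 (-0.04) and F21 against N2 (-0.35) the exact permutation p was 0.667. These differences moved with single libraries. F6 against N2 was at 0.72 without F6 replicate 1 and 0.14 without F6 replicate 2, and F21 against F6 at -0.49 without F6 replicate 2. F21 against N2 was at -0.59 without F21 replicate 1, -0.10 without F21 replicate 2 and -0.23 without N2 replicate 1. hrde-1;HC125 against N2 was at 0.077 without N2 replicate 1. Above the N2 mean, the F6 libraries gained 9.02 and 14.5 CPM at C04F5.9 for each 100 CPM gained at sid-1. In the HC125 libraries C04F5.9 stood higher by 1.54, 3.34, 0.34 and 0.213 CPM for each 100 CPM gained at sid-1. In CPM alone, C04F5.9 in HC125 stood 26.7, 53.1, 4.15 and 3.13 above the N2 mean. Replicates 3 and 4 of HC125, at 69.9 and 68.9 CPM, lay below N2 replicate 1 at 73.2 CPM, so their values show no gain beyond the spread of N2. Reads of any sid-1 sequence on the array would be counted at sid-1 in HC125 and in hrde-1;HC125. Their part in the lower ratio of HC125, and in the sid-1 levels of both array strains, was not tested.

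The hrde-1 mutation in the array strain was examined by comparing hrde-1;HC125 with HC125. Small RNAs fell at sid-1 and at C04F5.9, and rose at C04F5.8. sid-1 averaged 531.5 ± 36.4 CPM in hrde-1;HC125 (n = 2) and 2312 ± 216 CPM in HC125 (n = 4), with a log2 fold change of -2.12 ± 0.14 (edgeR adjusted p = 5.64e-09). C04F5.9 averaged 41.6 ± 1.00 CPM in hrde-1;HC125 and 87.5 ± 23.5 CPM in HC125 (log2 fold change -1.04 ± 0.22, edgeR adjusted p = 0.00219). C04F5.8 averaged 25.99 ± 4.04 CPM in hrde-1;HC125 and 8.37 ± 2.05 CPM in HC125, a 3.07-fold rise (log2 fold change 1.62 ± 0.28, edgeR adjusted p = 0.000319). These 3 of 5 members are to be read against 17.0% of all tested genes called, 7.76% higher and 9.20% lower. ugt-63 (-0.07 ± 0.79) and F14F9.4 (-0.43 ± 0.50) were not called. With library size alone as the scaling, the median of all genes in this comparison moved by -0.119 and the calls over all genes divided into 645 higher and 1194 lower, against 812 higher and 963 lower with TMM. The direction and the calls of the 3 genes stayed the same. Without N2 replicate 2 and HC125 replicates 1 and 2, the log2 fold change of C04F5.9 was -0.74.

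In hrde-1;HC125, sid-1 also lay below the wild type, with a log2 fold change of -0.61 ± 0.15 against N2 (edgeR adjusted p = 0.0106), where 17.7% of the tested genes were called, 8.84% higher and 8.89% lower. With library size alone the median moved by -0.101 and 701 genes were called higher and 1060 lower, against 926 higher and 931 lower with TMM. Without hrde-1;HC125 replicate 2 that call ended, at a log2 fold change of -0.58 (adjusted p = 0.089). C04F5.9 was at -0.63 ± 0.28 and not called (adjusted p = 0.126), though without N2 replicate 2 and HC125 replicates 1 and 2 it was (-0.79, adjusted p = 0.0487). C04F5.8, at 0.16 ± 0.34, was not called.

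C04F5.8 was lower in the 2 groups with the most small RNAs at sid-1, F6 and HC125, than in the other 3. Between F6 and HC125 it did not run opposite to sid-1, with a log2 fold change of 0.29 ± 0.30. Its level was 24.1 and 19.4 CPM at F21, 11.3 and 9.32 CPM at F6, 23.1 and 28.8 CPM in hrde-1;HC125, 6.45, 11.04, 8.88 and 7.10 CPM in HC125, and 24.4 and 22.4 CPM in N2. All 6 libraries of F6 and HC125 lay below all 6 of F21, hrde-1;HC125 and N2. The 2 groups overlapped with each other, as did the 3. These levels rest on few reads, 3 to 138 per library. edgeR called the rise in hrde-1;HC125 over HC125, and did not call the differences of HC125 and F6 from N2.

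The likeness of genes to sid-1 was measured as Pearson's r of log2(CPM + 1) over the 12 libraries, among 7312 genes with a mean of at least 10 CPM. The libraries fall into 5 groups that set most of each r, so the values are a description. Of the 7311 other genes, C04F5.9 had the highest r with sid-1 (0.853, Spearman's rho 0.930) and C04F5.8 the lowest (-0.869, rho -0.741). Without the 2 F6 libraries, which lie farthest from the median of sid-1, r was 0.841 for C04F5.9 and -0.957 for C04F5.8. After C04F5.9 the genes most like sid-1 were chs-2, a chitin synthase gene (0.846), wdr-5.1, which encodes a WD-repeat protein of histone methyltransferase complexes (0.834), the tropomyosin gene lev-11 (0.816) and R12E2.13 (0.811). None of these lies on chromosome V. chs-2 averaged 41.2 ± 14.3 CPM at F21, 118 ± 1.90 CPM at F6, 8.33 ± 3.39 CPM in hrde-1;HC125, 93.0 ± 32.03 CPM in HC125 and 49.0 ± 24.8 CPM in N2.

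For C04F5.9 the most like gene was in turn sid-1. It was followed by dhs-9, a gene of the short-chain dehydrogenase family (0.807), pigt-1 (0.784), F28D9.4 (0.779) and T07F10.5 (0.767). dhs-9 on chromosome III averaged 14.1 ± 2.10 CPM at F21, 90.1 ± 41.8 CPM at F6, 14.8 ± 1.54 CPM in hrde-1;HC125, 16.1 ± 5.69 CPM in HC125 and 12.3 ± 1.68 CPM in N2, so that it too was high at F6 alone among the 5 groups. pigt-1 (V:10956999-10958821) and T07F10.5 (V:12865915-12866445) lie on chromosome V, far from sid-1.

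**Figure D3:**
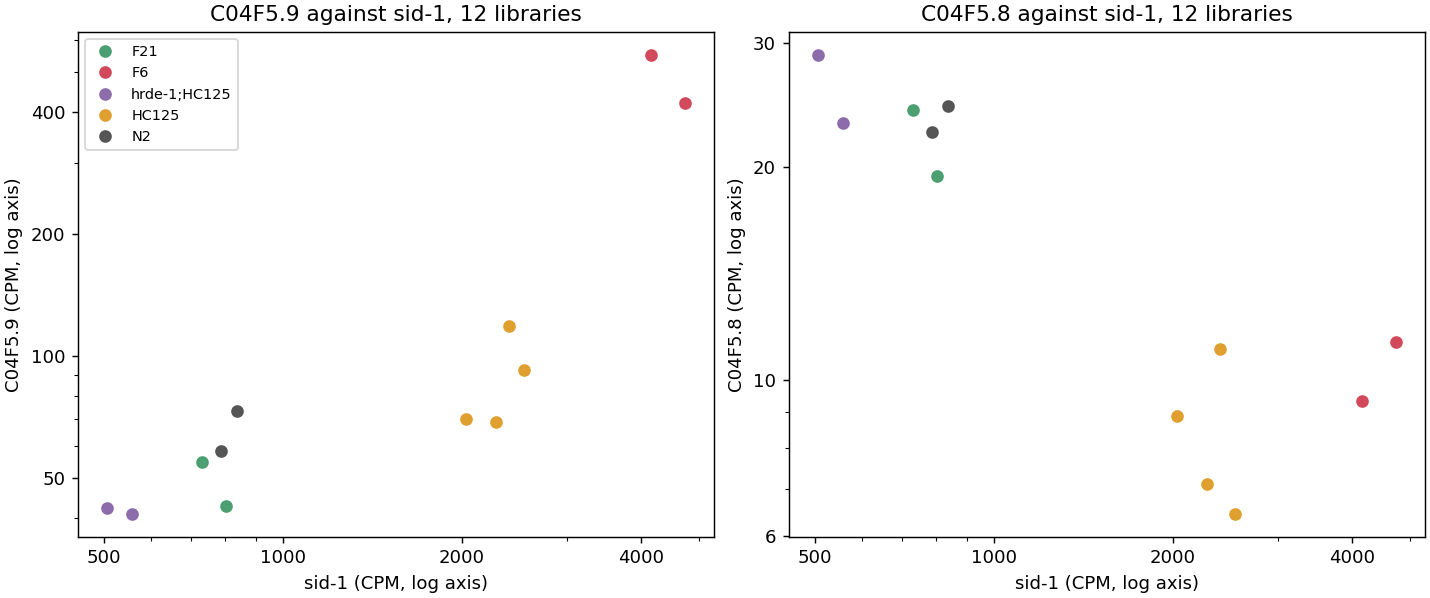
Level of C04F5.9 (left) and of C04F5.8 (right) against the level of sid-1 (CPM, log axes) in the 12 libraries, coloured by group. C04F5.9 rises with sid-1 but the HC125 libraries, at 68.9 to 119 CPM, lie far below those of F6, and C04F5.8 is at 6.45 to 11.3 CPM in all libraries of F6 and HC125.

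Within 20 kb downstream of sid-1, small RNAs were few in every group. F14F9.5, which begins 176 bases after sid-1, had 0 reads at F21, 6 at F6, 7 in hrde-1;HC125, 2 in HC125 and 1 in N2, summed over the libraries of each group, and was not tested. F14F9.8 had 0 reads in all 12 libraries. F14F9.4 lay at 12.3 and 7.78 CPM at F21, 10.97 and 8.77 CPM at F6, 6.04 and 2.97 CPM in hrde-1;HC125, 4.21 to 10.8 CPM in HC125, and 11.1 and 4.49 CPM in N2. The groups of F14F9.4 overlapped, apart from hrde-1;HC125, whose libraries lay below those of F21 and F6. Its interval for F6 against N2, -0.89 to 1.86 on the log2 scale, ends below the rise of 2.46 at sid-1. ugt-63 lay at 0 to 6.66 CPM over the 12 libraries, and its interval for F6 against N2, -2.36 to 2.91, is too wide to tell a change of that size from none.

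The 7 genes within 20 kb downstream together had 11.1 ± 2.02 CPM at F21, 12.0 ± 1.79 CPM at F6, 5.51 ± 3.59 CPM in hrde-1;HC125, 9.98 ± 5.73 CPM in HC125 and 8.35 ± 3.88 CPM in N2. The 6 genes within 20 kb upstream together had 71.5 ± 13.2 CPM at F21, 499 ± 91.5 CPM at F6, 70.5 ± 7.76 CPM in hrde-1;HC125, 98.3 ± 23.6 CPM in HC125 and 92.5 ± 16.6 CPM in N2. C04F5.9 held nearly all of the upstream reads at F6, 3313 of 3402. Beyond ugt-63 the chemoreceptor genes srab-1, srab-2 and srab-3 had 1, 1 and 2 reads in all libraries together.

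Per kb of annotated exon, which allows levels to be compared between genes, sid-1 had 1676 ± 153 CPM per kb at F6 and 306 ± 13.5 in N2. C04F5.9 had 281 ± 53.9 CPM per kb at F6 and 38.0 ± 6.07 in N2. The level of C04F5.9 at F6 was thus close to that of sid-1 in N2. C04F5.8 had 9.36 ± 1.27 CPM per kb at F6 and 21.3 ± 1.26 in N2, F14F9.4 had 3.44 ± 0.54 at F6 and 2.71 ± 1.63 in N2, and ugt-63 had 1.93 ± 0.22 at F6 and 2.16 ± 3.05 in N2. sid-1 held 86.6 to 96.4% of the reads of the 5 genes in each library.

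**Figure D4:**
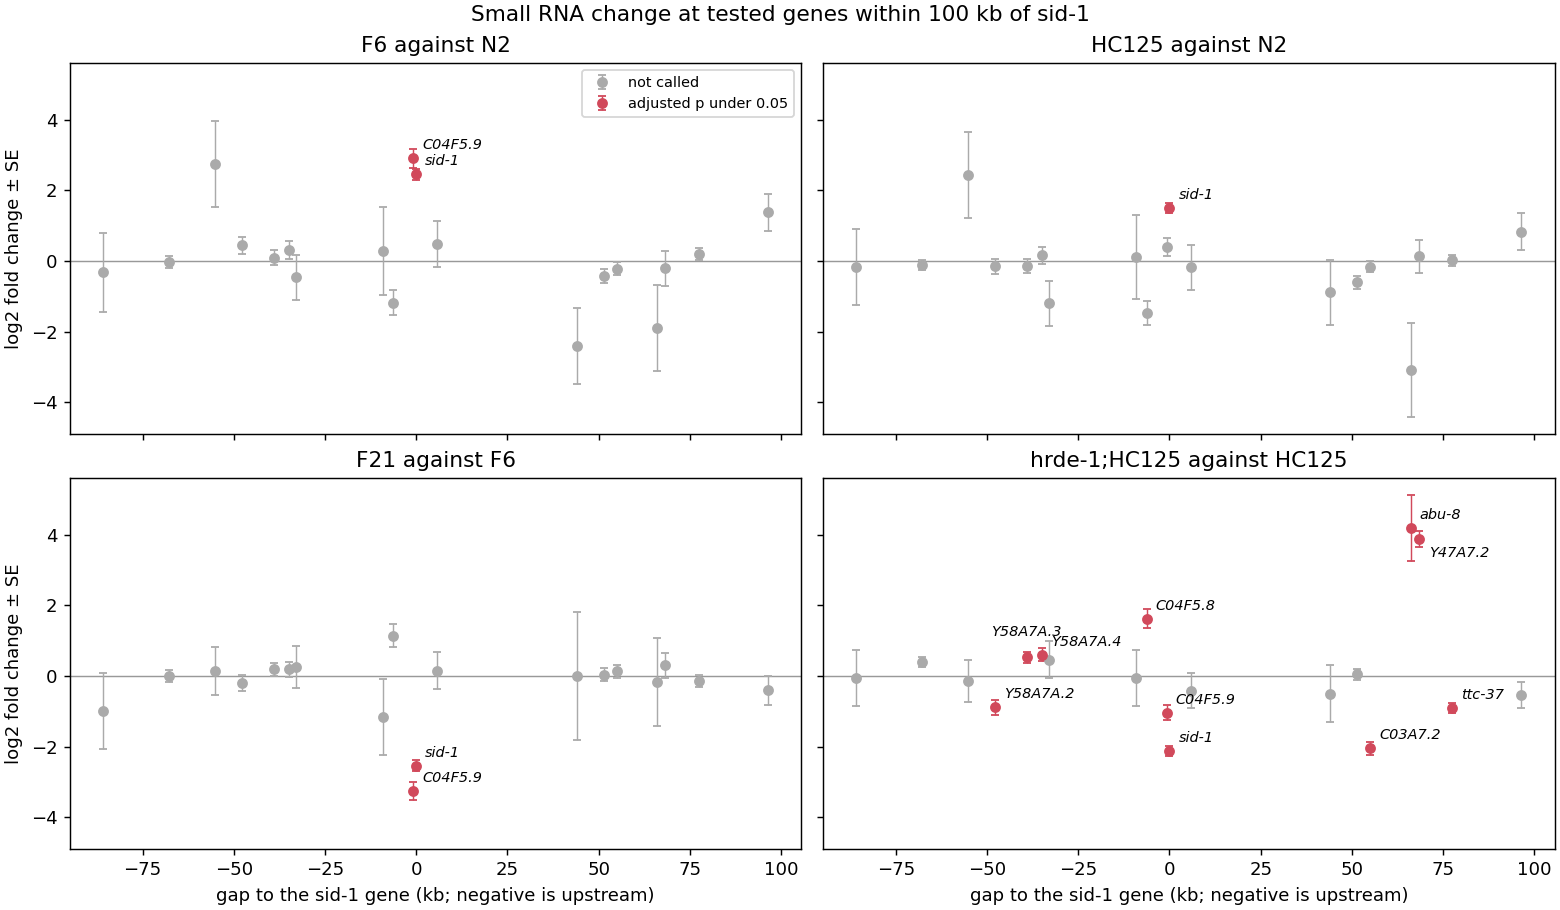
Log2 fold change with its SE at the 19 tested genes within 100 kb of sid-1, by the gap between each gene and sid-1 (kb, negative upstream), in 4 comparisons; called genes are red and named. With F6 as one side only sid-1 and C04F5.9 are called here, while in hrde-1;HC125 against HC125 10 of 19 are called on both sides of sid-1.

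Within 100 kb of the sid-1 gene the table held 51 genes, 27 upstream and 23 downstream beside sid-1, of which 19 were tested. The other 32 had at most 24 reads in any library. In F6 against N2, F21 against F6 and F6 against HC125, the called genes of this stretch were the same 2, sid-1 and C04F5.9. In HC125 against N2 edgeR called sid-1, while DESeq2 called 2 genes, sid-1 and C04F5.8, and edgeR without the low-count filter called 3. In F21 against N2 edgeR called none, with 1 of the 19 at an unadjusted p under 0.05. In hrde-1;HC125 against N2 edgeR called 6 of the 19, 31.6% beside 17.7% of all tested genes, with 2 higher and 4 lower. The median log2 fold change of the 19 genes was 0.10 in F6 against N2, beside 0.0566 over all tested genes, and -0.14 in HC125 against N2, beside 0.0115.

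Genes on both sides of sid-1 differed between the array strains with and without the hrde-1 mutation. In hrde-1;HC125 against HC125 10 of 19 were called, 52.6% beside 17.0% of all tested genes, with 5 higher and 5 lower. C03A7.2, 55.0 kb downstream and inside the span of C03A7.13 on the other strand, fell to 505.1 ± 44.0 CPM in hrde-1;HC125, against 2091 ± 375 CPM in HC125 (log2 fold change -2.05 ± 0.18, edgeR adjusted p = 1.17e-07). Unlike sid-1 it was not called in HC125 against N2 (-0.16 ± 0.16) or F6 against N2 (-0.21 ± 0.18). Y58A7A.2 (-0.89) and ttc-37 (-0.91) fell as well. Y47A7.2 rose to 96.7 ± 20.1 CPM in hrde-1;HC125, against 6.70 ± 1.26 CPM in HC125 (3.88 ± 0.23, edgeR adjusted p = 1.22e-09). abu-8 (4.197, at most 59 reads in a library and a member of a family of related genes), Y58A7A.3 (0.52) and Y58A7A.4 (0.60) also rose. pqn-51, 67.76 kb upstream, averaged 425 ± 21.6 CPM in hrde-1;HC125 and 324 ± 46.4 CPM in HC125, and 344 ± 5.16 CPM at F6 and 351 ± 46.8 CPM in N2. It was not called in any of the 7 comparisons.

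The count of called genes in the stretch moved by over 1.5 times with 1 library in 2 comparisons. It was 6 without hrde-1;HC125 replicate 1 in hrde-1;HC125 against HC125, and 2 without HC125 replicate 2 in HC125 against N2.

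No other gene of systemic RNAi was called. Of the 7 genes of that list, 5 were tested, and in the 6 comparisons in which a member was called it was sid-1 alone. Over all tested genes the share called ran from 0.143% in F21 against F6 to 17.7% in hrde-1;HC125 against N2. In the latter, 3 of the 5 had an unadjusted p under 0.05, and at most 1 did in each other comparison. There rsd-3 was at a log2 fold change of 1.24, just short of a call (edgeR adjusted p = 0.0502). Of 9 genes of heritable nuclear RNAi, all tested, edgeR called 0 in F6 against N2 (2 at an unadjusted p under 0.05), 0 in HC125 against N2 (0 unadjusted), 0 in F21 against F6 (0 unadjusted), 0 in F21 against N2 (1 unadjusted) and 0 in F6 against HC125 (0 unadjusted). In hrde-1;HC125 against HC125, 1 rose, nrde-2 (log2 fold change 0.48), and 2 fell, set-25 (-0.46) and hrde-1 itself (-1.01 ± 0.17, edgeR adjusted p = 0.000254), where 17.0% of all tested genes were called. In hrde-1;HC125 against N2, nrde-2 rose (0.54) and hrde-1 fell (-0.73, edgeR adjusted p = 0.012), 2 of 9 where 17.7% of all tested genes were called, a share near that of all genes.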

How the data were processed

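Raw counts of 21 to 26 nt reads at each gene were deposited by the authors in 1 table, made with Bowtie2 and HTSeq per the submitters' processing notes. Versions, genome build, annotation, strand setting and treatment of multiply matching reads are not stated there. The 12 libraries are labelled 5'-independent. A further 2 HC125 libraries, labelled 5'-dependent, were not analysed here. Coordinates come from Ensembl release 115 (build WBcel235) by gene ID, matched for 20194 of 20541 IDs. This build need not be the one behind the counts.

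From the counts, 1 model of the 12 libraries in 5 groups was fitted in R 4.3.3 with edgeR 4.0.16 (filterByExpr with minimum count 10 and minimum total 15, TMM scaling, robust quasi-likelihood F test, two-sided, 7 residual degrees of freedom). A gene was called at a Benjamini-Hochberg adjusted p under 0.05 over all 10470 tested genes. Levels are CPM with TMM scaling, and ± is the SD for levels and the SE for log2 fold changes. That SE is the absolute log2 fold change divided by the square root of its F value. The 95% intervals were built from this SE and the t distribution, so they need not match the p-value exactly. Log CPM of replicates correlated at 0.893 to 0.985. Ratios of C04F5.9 to sid-1 reads were compared by exact permutation over libraries. Counting intervals cover counting error only, and no use of molecular identifiers is stated.

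Alternatives were RLE scaling, library size only, no low-count filter, DESeq2 1.42.0, only the groups compared, a replicate block, windows of 50 and 20 kb, 3 libraries left out together, and each library left out in turn. Named genes were the 5 members, hrde-1, called or abundant genes within 100 kb, the 5 genes most like sid-1 and C04F5.9, and called members of 3 lists. Members, lists and the 3 libraries left out together were chosen with earlier results of these data known. The comparisons share groups and are not independent.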

Additional observations from a re-analysis of the deposited data

How the results depend on the processing

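The direction and call of sid-1 held in 82 of 83 alternative values, those of C04F5.9 in 81 of 83 and those of C04F5.8 in 78 of 83. Causes of the exceptions were not tested. Depth limits ugt-63 and F14F9.4, which rest on 0 to 16 and 4 to 46 reads per library and reversed often without a call. Some alternatives gave ugt-63 no value because it did not pass their filter.

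Leaving out each library in turn, sid-1 lay at -0.68 to -0.57 in hrde-1;HC125 against N2. C04F5.8 lay at -1.63 to -1.35 in HC125 against N2, -0.047 to 0.31 in hrde-1;HC125 against N2 and -0.26 to 0.073 in F21 against N2. The log2 ratio of C04F5.9 to sid-1 reads lay at -0.16 to 0.077 in hrde-1;HC125 against N2, 0.14 to 0.72 in F6 against N2, -1.07 to -0.49 in F21 against F6 and -0.59 to -0.10 in F21 against N2. ugt-63 lay at -1.30 to 5.82 in HC125 against N2, -1.35 to 0.71 in hrde-1;HC125 against HC125, -1.36 to 5.76 in hrde-1;HC125 against N2, -1.13 to 5.98 in F6 against N2, -5.54 to 4.82 in F21 against N2 and -0.081 to 0.29 in F6 against HC125. F14F9.4 lay at -0.83 to 0.44 in HC125 against N2, -1.23 to 0.032 in hrde-1;HC125 against N2, -0.15 to 1.10 in F6 against N2, -0.37 to 0.32 in F21 against F6 and -0.0061 to 1.25 in F21 against N2. Within 100 kb, 1 to 2 genes were called in HC125 against N2 and 6 to 12 in hrde-1;HC125 against HC125. Genes called numbered 30 to 91 in HC125 against N2, 1065 to 1779 in hrde-1;HC125 against HC125, 1045 to 1429 in hrde-1;HC125 against N2, 35 to 586 in F6 against N2, 6 to 14 in F21 against F6, 9 to 107 in F21 against N2 and 31 to 187 in F6 against HC125.

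Without N2 replicate 2 and HC125 replicates 1 and 2 together, C04F5.9 was at -0.054 in HC125 against N2 and at -0.79 (adjusted p = 0.0487) in hrde-1;HC125 against N2. ugt-63 was at -0.97 in HC125 against N2, -1.39 in hrde-1;HC125 against N2, -1.10 in F6 against N2 and -0.14 in F6 against HC125. F14F9.4 was at 0.12 in hrde-1;HC125 against HC125 and -0.12 in F6 against N2. C04F5.8 in HC125 against N2 was called without the low-count filter (-1.44, adjusted p = 0.0484) and by DESeq2 (-1.52, adjusted p = 0.0467). It was not called with the replicate block (-1.28), only the groups compared (-1.50), RLE scaling (-1.51) or library size only (-1.44). For ugt-63 in hrde-1;HC125 against N2, RLE scaling gave -0.0049, library size only -0.037 and DESeq2 -0.13, and DESeq2 gave 0.061 in hrde-1;HC125 against HC125. Called genes near sid-1 in HC125 against N2 numbered 3 without the filter and 2 by DESeq2. Within 50 and 20 kb, where 10 and 5 genes were tested, called genes numbered 6 and 3 in hrde-1;HC125 against HC125. In hrde-1;HC125 against N2 they numbered 3 of 10 and 1 of 5.

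Replicates of the same number, 1 or 2, deviated together at r of -0.26 to 0.32. In a group of 2 libraries the deviations mirror each other, so this check cannot tell whether libraries were paired. HC125 replicates 3 and 4 were not checked against hrde-1;HC125. The numbers were not taken as pairs. With the replicate block no call of sid-1, C04F5.9 or C04F5.8 changed. Replicate numbers 3 and 4 occur only in HC125, so under the block HC125 rested on its replicates 1 and 2 alone. Under the block ugt-63 was at -0.92 in HC125 against N2 and 0.98 in hrde-1;HC125 against HC125, and F14F9.4 at 0.54 in HC125 against N2, -0.0011 in F21 against F6 and -0.078 in F6 against HC125. Genes called under the block numbered 842 in F6 against N2, 42 in F21 against F6, 172 in F21 against N2 and 616 in F6 against HC125.

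The count of genes called over the whole table moved by over 1.5 times in 41 of 83 alternative values. In HC125 against N2 it was 53, against 256 without the filter, 488 without the 3 libraries, 18 with only the groups compared and 97 by DESeq2. In F6 against N2 it was 150, against 1183, 252, 554 and 543 in the same order. In F21 against F6 it was 15, against 140, 90, 97 and 39. In F21 against N2 it was 21, against 662, 143, 37 and 94. In F6 against HC125 it was 65, against 729 without the filter, 484 without the 3 libraries and 260 by DESeq2.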
